A study of Salmo salar with 6 samples.

Results

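The transcripts of the head kidney of Atlantic salmon fed a basal diet were ranked by the brightness of their microarray probes, from the 3 control arrays of 6 arrays in all. Each array held RNA pooled from 6 juvenile fish, which the labels give by weight (252 g), after 133 days on the basal diet (control, 0% inclusion of the additive). The other 3 arrays held head kidney RNA of fish fed that diet with 0.1% MPLE, an additive from sage and lemon verbena, and were not used, so nothing here compares diets. All fish had been treated with hydrogen peroxide and formaldehyde after transport and lived in a recirculating seawater system. The labels do not say which tanks or fish each pool came from. The 3 arrays were taken by their titles, and every spot that was not a control spot was kept: 42438 spots of 42386 probes per array.

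The head kidney of bony fish is the counterpart of mammalian bone marrow, and red cells, granulocytes, macrophages, thrombocytes and B cells are formed in it. It also holds 2 kinds of endocrine cell, the interrenal cells that make cortisol and the chromaffin cells that make catecholamines. Its tissue can carry over remnants of kidney tubule, and a dissected piece can bring along neighbouring tissue. A bulk sample such as this cannot tell fewer cells of a type from less RNA per cell.

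Levels are log2 processed signals relative to the 75th percentile of the same array, so that 0 is the brightness that 3 in 4 spots do not reach and each unit is a doubling. A rank compares probes, which bind their targets with unequal strength, so it is not a rank of transcript number. A gene was read at its brightest probe. Salmon carry many near-identical gene copies from an ancient genome duplication, and a probe for one copy may also capture others. Of 42386 probes, 40932 carried a RefSeq accession, 25641 of these matched a gene in RefSeq's table of assembly Ssal_v3.1, and 8155 matched a gene with a name, 8072 named genes in all. Another 17388 genes have only a locus number, and neither the files nor the table says what they encode.

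Control pool 3 stood apart from the other pools. Its 75th percentile was 138 intensity units, against 394 in pool 1 and 470 in pool 2. Spots well above background, as flagged by the scanner software, numbered 25868 in pool 1, 25418 in pool 2 and 18046 in pool 3 (61.0%, 59.9% and 42.5% of spots). The spots of each spike-in probe, which detects added RNA that is not from fish, had a median coefficient of variation of 12.4% in pool 1, 6.47% in pool 2 and 29.4% in pool 3. Each array sat on its own slide, so pool of fish, slide, hybridisation and labelling reaction cannot be told apart, and with 1 group of 3 pools no test was run. The number of arrays limits the precision.

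About 2 in 5 probes passed the flag for well above background in every pool. Well above background on all 3 arrays were 17277 probes (40.8%), on 2 arrays 5560, on 1 array 6262 and on none 13287 (31.3%). The probes lost on the way were mostly those of the dim array: 5118 probes passed in pools 1 and 2 but not in pool 3, and 293 passed in pool 3 alone. Leaving pool 3 out, 22395 probes were well above background on both remaining arrays. Among named genes, 4618 of 8072 (57.2%) were well above background on all 3 arrays and 1753 (21.7%) on none. The lowest level flagged as well above background was -4.44, -3.83 and -4.33 in pools 1, 2 and 3, so lower levels than these carry no order.

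Signal was concentrated in few probes. The 10 brightest probes held 4.48% to 6.51% of the summed signal of an array, the 100 brightest 22.2% to 25.1% and the 1000 brightest 60.4% to 62.8%. The median probe lay at -2.98 and the 99th percentile at 5.67. Of the 100 brightest probes, 28 had a named gene, 38 a gene with a locus number only and 34 no gene in the table, so most of the top of the ranking has no name here. Leaving out pool 3 kept 91 of these 100 probes.

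The brightest probe, LOC106601072, read 10.05, 9.64 and 11.53 in pools 1, 2 and 3, a mean of 10.41 ± 0.99 (SD, n = 3). LOC106601051 averaged 9.76 ± 0.56, LOC106601073 9.40 ± 0.28 and LOC106601078 9.17 ± 0.32 (SD, n = 3 each). These 4 genes and LOC106601071, at 8.06 ± 0.35, lie within 20 protein-coding genes of each other in the table's order. LOC106607383 averaged 9.39 ± 0.55 and LOC106607371 9.33 ± 0.54 (SD, n = 3 each). Together with LOC106607380, at 8.07, 7.62 and 8.31 in the pools, they lie 8, 5 and 7 protein-coding genes from hba, the alpha-globin gene. No other member of the 100 brightest probes had as many bright neighbours as the first of these clusters. The first 10 were completed by 3 probes without a gene, at 9.70, 8.98 and 8.93, and by rpl4.

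Named genes at the top were above all those of ribosomal proteins, the structural parts of the ribosome. The brightest, rpl4 of the large subunit, read 8.93, 8.49 and 9.31 in pools 1, 2 and 3. Next came rl23 (8.63, 8.56 and 9.33), an older symbol for a large-subunit protein, and rpl13a (8.90, 8.50 and 8.38). Of the 30 brightest named genes, 22 carried a symbol of a ribosomal protein, and of the 100 brightest 41 did. Counting both the rpl and rps symbols and the older rl and rs ones, 57 such genes were on the array. All but 1 of them were well above background on all 3 arrays, and their median level was 7.18. They held 7.29%, 6.67% and 5.65% of the summed signal in pools 1, 2 and 3. Ribosomal protein genes under any other symbol are not in these counts.

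**Figure D1:**
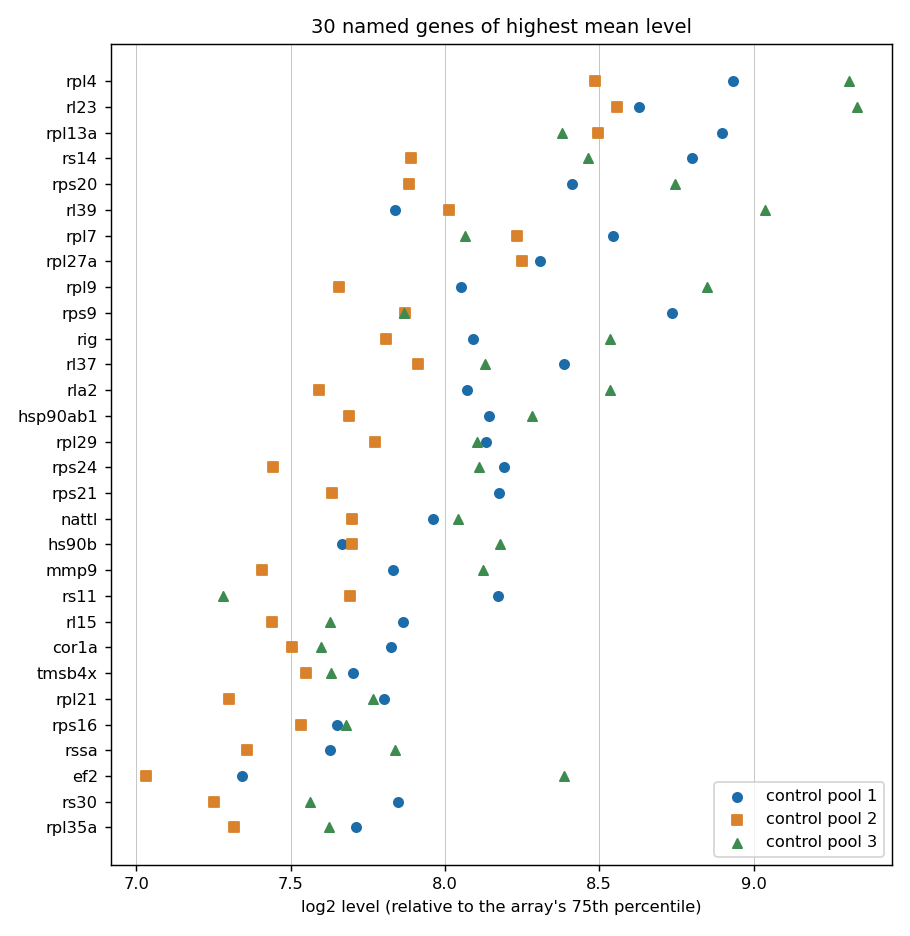
Levels of the 30 named genes of highest mean level in each control pool, in descending order of the mean, as log2 signal relative to the array's 75th percentile (horizontal axis, which does not start at 0). Each symbol is 1 pool of 6 fish, and a missing symbol is a spot flagged as an outlier. Pool 2 is the lowest for most of these genes, and rpl4 leads with a mean of 8.91.

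The other 8 of these 30 included genes of chaperones, of actin-binding proteins and of granulocytes. The genes hsp90ab1 and hs90b, symbols of the cytosolic chaperone Hsp90 beta, averaged 8.04 ± 0.31 and 7.85 ± 0.29 (SD, n = 3 each). The level of ef2, the elongation factor that moves the ribosome along, was 7.34, 7.03 and 8.39, highest in pool 3. The gene cor1a, the actin-binding coronin of white blood cells, averaged 7.64 ± 0.16, and tmsb4x, the actin-sequestering thymosin beta, 7.63 ± 0.08 (SD, n = 3 each). The matrix metalloproteinase mmp9, stored in neutrophil granules, read 7.83, 7.41 and 8.12. Nattl, a natterin-like protein, averaged 7.90 ± 0.18, and rig 8.14 ± 0.37 (SD, n = 3 each). The ribosomal proteins were counted by symbol, so rig was left out of them whatever its product.

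The distance between probes of the same gene shows how far a rank can be off. For 72 genes, more than 1 probe was well above background on all 3 arrays, and the probes of a gene lay a median of 1.26 apart. In 12 of the 72 genes (16.7%) they lay more than 3 apart. The widest gap was that of bafb, whose probes averaged 6.63 and -0.56. In ctsf, the protease cathepsin F, they lay 5.61 apart, and ankrd13d, rufy3 and acsl1a completed the 5 widest among named genes, with gaps of 5.18, 4.59 and 3.58. Genes whose levels differ by less than the median gap therefore have no settled order. A larger difference need not settle it either, since the upper quartile of the gaps was 2.39. The descriptions that follow are by list, and some lists hold few genes.

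Markers of the blood lineages were read next, as lists of symbols matched to the named genes. Each list is described by how many of its genes were well above background and by the median percentile of its members among the 8072 named genes. A percentile of 50 is the middle of those genes, of which 57.2% were well above background on all 3 arrays. A gene with only a locus number, or under a symbol that no entry matched, is in no list. A list's counts, median and brightest genes are therefore those of its matched members only. The older symbols cats (cathepsin S), k2c8 (keratin 8) and co4a1 (a collagen IV chain), with means of 6.41, 6.75 and 7.03, were among those missed in this way.

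Red cell genes stood high. Of 20 such genes, 18 were well above background on all 3 arrays and none was on 0, with a median percentile of 87.9. The alpha-globin gene hba read 7.61, 7.09 and 7.81 in pools 1, 2 and 3. The gene alas2, the first enzyme of heme synthesis in red cells, read 6.75, 6.79 and 7.24. Transferrin receptor tfr1a, through which red cell precursors take up iron, averaged 6.12 ± 0.45, and the Rh-type ammonia channel rhag 5.19 ± 0.26 (SD, n = 3 each). Of these 4 genes tfr1a had the widest range between pools, 0.85, and its SD was close to the median of 0.44 over all named genes. Over the red cell list the median SD was 0.29.

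Genes of dividing cells stood high as well, whereas those of blood progenitors passed the flag about as often as named genes at large. Of 19 cell division genes, 17 were well above background on all 3 arrays and bub1b on none, with a median percentile of 89.5. The brightest matched genes were birc5a (survivin, 5.08, 4.68 and 5.81), top2a (a DNA topoisomerase, 4.81, 4.33 and 5.01), mcm7 (a replicative helicase subunit, 4.81, 4.21 and 4.87) and tk1 (thymidine kinase, 4.27, 4.24 and 5.14). The older symbols rir1 and rir2 of ribonucleotide reductase, with means of 5.00 and 5.61, were not matched, and rir2 was brighter than birc5a. Of 10 progenitor genes, 6 (60%) were well above background on all 3 arrays, against 57.2% of all named genes. Some of the 6 are also in other lists. The progenitor list had a median percentile of 75.2. It was led by the transcription factor cebpa of myeloid precursors (5.45, 5.21 and 6.24) and by fli1 of blood and endothelium (5.34, 4.88 and 5.78). The transcription factors mycn and hoxa9b were on none, and kita passed in pool 1 alone.

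Neutrophil genes had the highest median percentile of any cell-type list, 95.6, with 11 of 13 genes well above background on all 3 arrays. In pool 3 alone, where some of its genes had no value, the list's median was 87.9, below the 89.6 of the thrombocyte list. After mmp9 came the collagenase mmp13 (7.54, 6.96 and 7.46). The genes cyba, a subunit of the oxidase that makes the respiratory burst, and mpx, the myeloperoxidase of neutrophil granules, averaged 6.78 and 6.05 over pools 1 and 2, since their spots in pool 3 were flagged as outliers. The chemokine receptor cxcr2 was on 0 arrays. Of 12 genes of monocytes and macrophages, 9 were well above background on all 3 arrays, with a median percentile of 77.8. Their brightest matched gene was cd68, a lysosomal membrane protein, at 6.37, 5.73 and 7.39. Among matched genes it was followed by c1qa, a complement subunit made by macrophages, at 5.10, 4.88 and 5.57. The progranulin gene grna averaged 4.88 ± 0.49 (SD, n = 3). The protease lgmn of lysosomes read 4.54, 4.07 and 2.52. The transcription factor spic and mfap4 were on 0 arrays.

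The B cell list ranked above the T cell list. Of 12 B cell genes, 11 were well above background on all 3 arrays, with a median percentile of 82.0, and all 5 plasma cell genes were, with a median of 85.5. The brightest gene of the B cell list was cd74a, the invariant chain of MHC class II (6.64, 6.49 and 6.88). It was followed by the kinase btk (4.97, 4.49 and 6.28), and neither gene is particular to B cells. Next came the antigen receptor subunit cd79b (4.01, 3.53 and 3.19) and the coactivator pou2af1 (3.09, 2.84 and 3.82). The lowest members were cxcr5, at percentile 36.1 and not well above background in pool 3, and tnfrsf13b, at 49.9. The plasma cell list was led by xbp1, the transcription factor of secretory cells, at 5.22, 4.48 and 6.05. Of 9 T cell genes, 6 were well above background on all 3 arrays, with a median percentile of 47.8. The brightest was the adaptor sh2d1ab (3.32, 3.20 and 4.05), followed by the coreceptor cd8a (0.40, 0.20 and -0.58). The receptor subunit cd3e, at 0.48 and 0.28 in pools 1 and 2, was not well above background in pool 3. Of 6 genes of cytotoxic lymphocytes, 3 were well above background on all 3 arrays, among them the granzyme gzma (1.66, 2.02 and 1.95) and the perforin prf1.5 (0.62, 0.60 and 0.99). A further perforin gene, prf1.3, which the list did not hold, was brighter, at 3.80 ± 0.30 (SD, n = 3). Interferon gamma, ifng, and the transcription factor tbx21 were on 0 arrays.

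All 6 thrombocyte genes were well above background on all 3 arrays, with a median percentile of 88.7. Their members fli1 and nfe2 are also in other lists. The platelet receptor subunits gp9 (2.98, 2.54 and 3.66) and itga2b (2.89, 2.52 and 3.58) were alike in level, and both were highest in pool 3. Endothelial genes had a median percentile of 66.1, with 9 of 11 well above background on all 3 arrays. They were led by plvapb, a protein of capillary pores (5.20, 4.59 and 5.53), and stab2, the scavenger receptor of sinusoidal endothelium (4.94, 4.67 and 5.60). Stromal genes had a median percentile of 82.4, with 8 of 9 well above background on all 3 arrays. The brightest matched gene was cxcl12a, the chemokine that holds blood stem cells in their niche, at 4.18, 3.37 and 5.69. The unmatched co4a1 was brighter.

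The endocrine cells of the organ differed in their probes' levels. Of 9 interrenal genes, 6 were well above background on all 3 arrays, and the leading genes were among the brightest of any list. The steroid dehydrogenase hsd3b1 read 7.06, 6.58 and 7.62 in pools 1, 2 and 3, and star, which carries cholesterol into mitochondria, 7.33, 6.84 and 6.81. The ferredoxin fdx1b, an electron donor of steroid hydroxylases, read 3.58, 2.78 and 1.81. The probes of cyp17a1, a steroid 17-hydroxylase, and of soat1, which esterifies cholesterol, were on 0 arrays. Of 10 genes in the chromaffin list, only aanat1 was well above background on all 3 arrays (-1.41, -1.14 and 0.49). Its product is an enzyme of melatonin synthesis, not of catecholamine synthesis. Of the list, 5 genes were on none, among them the chromogranins chga and chgb. Tyrosine hydroxylase, th, the first enzyme of catecholamine synthesis, was well above background at -3.33 and -1.78 in pools 1 and 2 and not in pool 3. The adrenaline-forming pnmt likewise read -2.55 and -2.88 in pools 1 and 2. The median percentiles were 78.6 for the interrenal list and 19.7 for the chromaffin list.

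**Figure D2:**
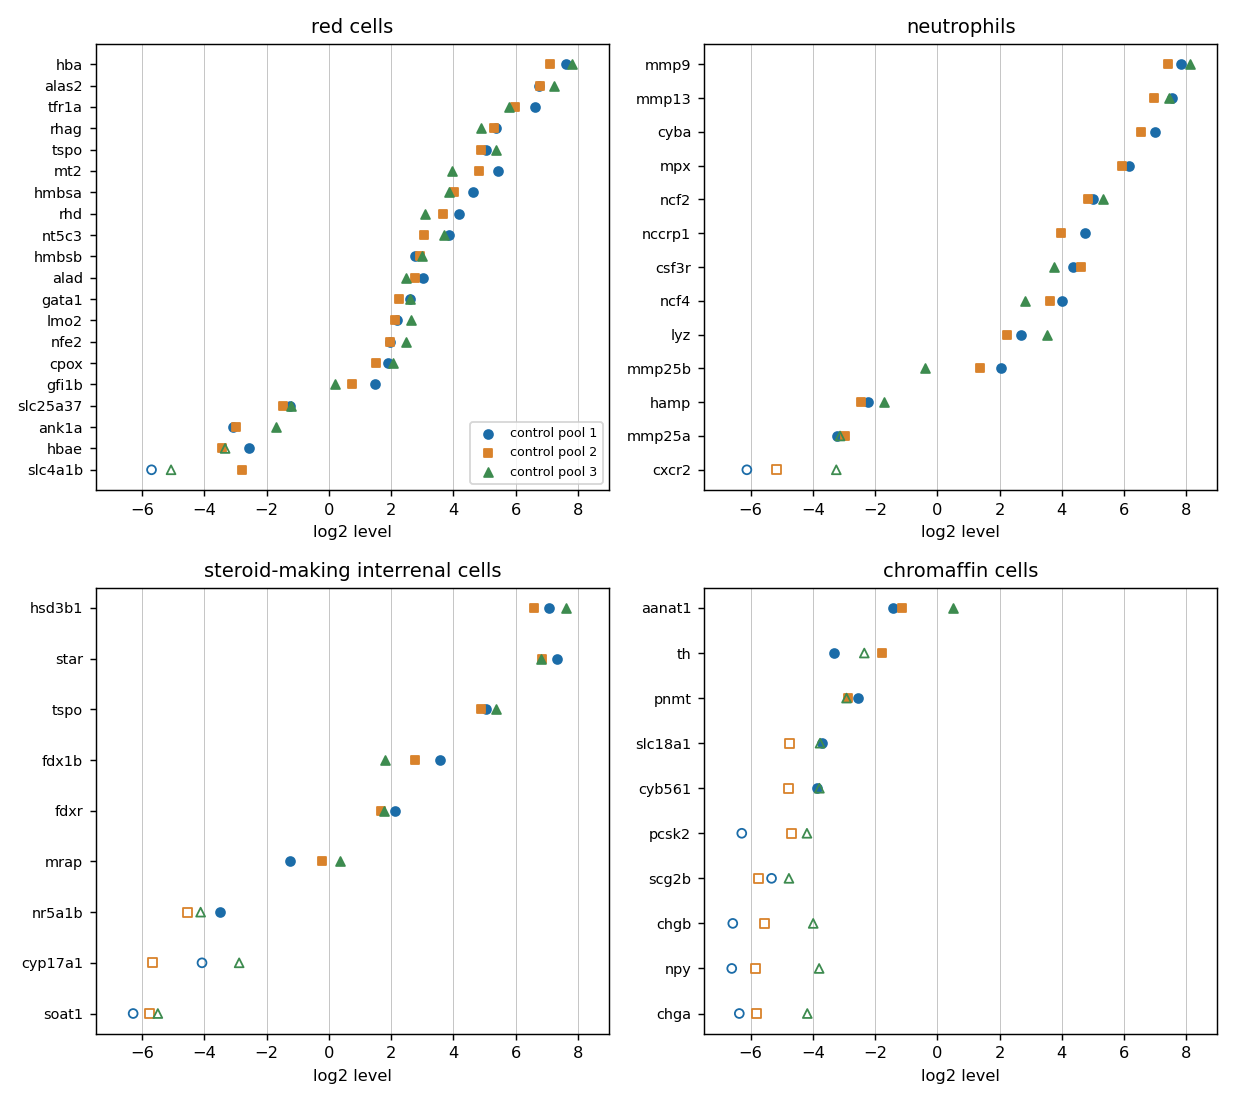
Levels of the genes of 4 cell-type lists in each control pool, as log2 signal relative to the array's 75th percentile (horizontal axis). Filled symbols are well above background in that pool and open symbols are not. The red cell, neutrophil and interrenal lists are led by hba, mmp9 and hsd3b1. The brightest gene of the chromaffin list, aanat1 of melatonin synthesis, averages -0.69.

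Lists of processes that run in all cells and of immune readiness were mostly high. All 45 genes of the respiratory chain were well above background on all 3 arrays, with a median percentile of 92.8, led by cox4i1 (6.33, 5.53 and 5.99), a subunit of cytochrome c oxidase. So were all 10 genes of MHC presentation, with a median percentile of 90.1, led by cd74a and by the immunoproteasome subunit psmb9a (3.96, 3.75 and 4.59). Of 17 genes of the interferon response, 16 were well above background on all 3 arrays, with a median percentile of 87.5. Their brightest was eif2ak2, the kinase PKR in mammals (6.86, 6.30 and 6.74), and the antiviral mx read 2.18, 0.97 and 3.45. Heat shock and folding genes had a median percentile of 84.9, with 12 of 14 well above background on all 3 arrays. The stress-inducible hspa1b was on none, whereas hspa8, the constitutive Hsp70, averaged 7.12 over pools 1 and 2. The medians of the cytoskeleton list and of the translation factor list were at 78.5 and 71.6. Without symbols that matched by name but belong to other proteins, the cytoskeleton list lay at 86.6.

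Genes that rise with inflammation, stress or sudden stimulation lay nearer the middle. The list of inflammation and acute phase had a median percentile of 53.3, with 9 of 13 genes well above background on all 3 arrays. The transcription factor subunit nfkb2 read 3.49, 3.01 and 2.81, while ptgs2b, the inducible cyclooxygenase, and nos2b, the inducible nitric oxide synthase, were on 0 arrays. Immediate early genes had a median percentile of 55.5, with 12 of 20 well above background on all 3 arrays. Of these, cebpb (5.20, 4.71 and 5.14) and klf2a (3.57, 3.38 and 3.93) were bright, whereas egr1, atf3, fosl1a and zfp36l1a were on 0 arrays. The list of glucocorticoid and stress targets had a median percentile of 50.2, led by the metallothionein mt2 (5.43, 4.81 and 3.94), and foxo3b and the clock gene per1b were on 0 arrays. Iron and heme genes had a median percentile of 55.9, with 15 of 16 well above background on all 3 arrays, led by tfr1a and by the transferrin gene tfa (5.04, 4.21 and 5.45).

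Markers of other tissues gave the lower end. Of 21 genes of brain and eye, 12 were on 0 arrays, among them the visual pigment rho, and the median percentile was 12.3. Of the 5 that were well above background on all 3 arrays, plp1a, a myelin proteolipid, was the brightest at 3.89, 3.78 and 5.74, and the hormone precursor pomca read -2.44, -2.78 and -1.49. The glutamate transporter slc17a6a averaged -1.20 ± 0.42 (SD, n = 3), and rhoab and rhob, matched to this list by name, encode small GTPases and not visual pigments. No gene of the 11 in the gonad list was well above background on all 3 arrays, and 8, among them the germ cell genes ddx4, dazl and sycp3, were on none. Of 23 kidney tubule genes, 8 were well above background on all 3 arrays and 9 on none, with a median percentile of 28.3. The water channel aqp1, which red cells also carry, read 3.83, 3.59 and 5.22, and the kidney cadherin cdh16 averaged 1.29 ± 0.84 (SD, n = 3), whereas lrp2a, lrp2b, slc12a3 and slc5a2, an endocytic receptor pair and 2 tubular transporters, were on 0 arrays. Pancreas genes had a median percentile of 33.8, with the trypsin gene prss1 at -0.33, -0.37 and -1.96. Intestinal and epithelial genes had a median percentile of 46.2. Their brightest matched gene was the keratin krt18b (5.34, 4.74 and 4.54), below the unmatched k2c8. Genes of fat tissue had a median percentile of 52.7 and were led by cfd, the adipsin gene, at 5.87, 6.53 and 4.80; adipoqb, an adiponectin, was on 0 arrays. Liver and skeletal muscle genes, at 44.4 and 53.6, are described with the differences between pools.

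**Figure D3:**
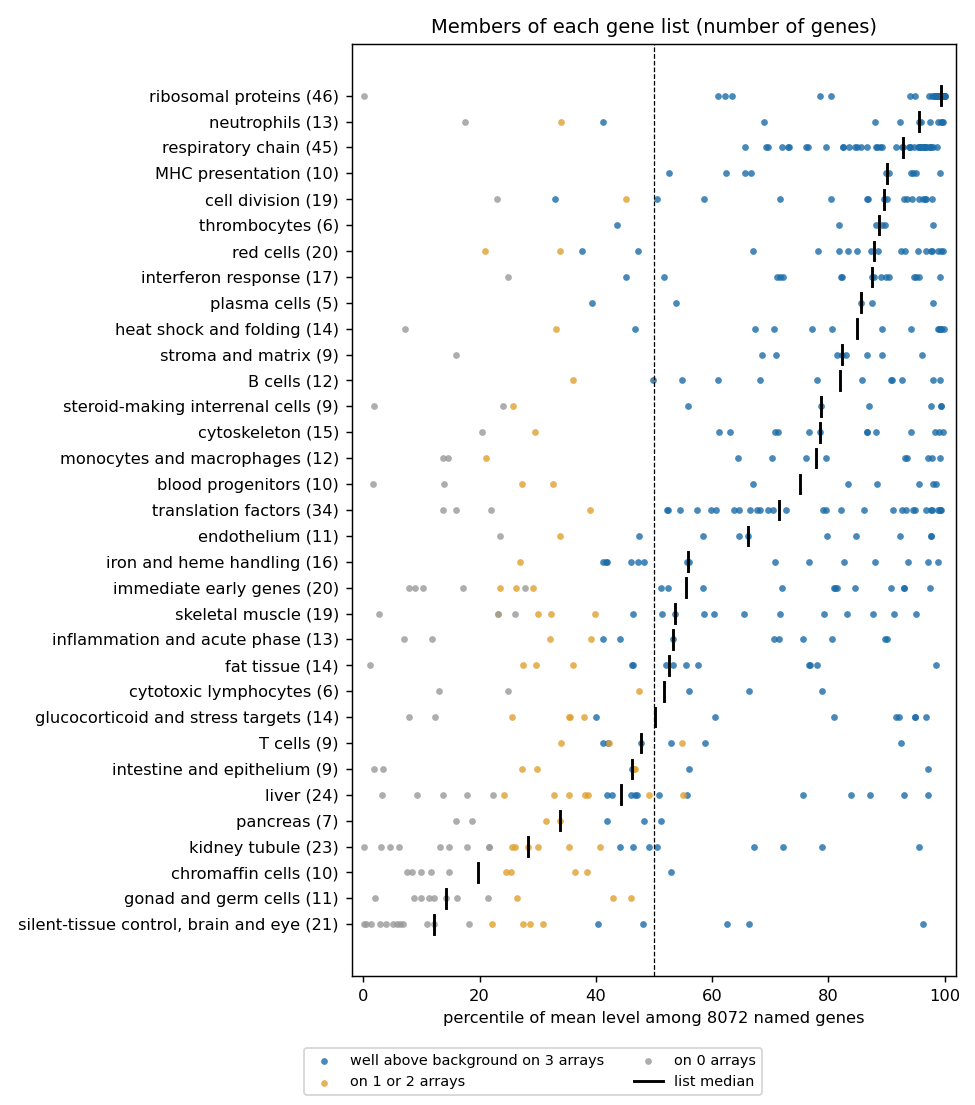
Percentile of the mean level among 8072 named genes (horizontal axis) for every gene of 33 lists (rows, with the number of genes), ordered by the list's median (black bar). Blue points are well above background on 3 arrays, orange on 1 or 2, grey on 0, and the dashed line marks 50. Neutrophil genes have the highest median among cell types, at 95.6, and genes of brain and eye the lowest of all lists, at 12.3.

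The spread between pools is given beside that of spike-in RNA, which was measured over more spots. Over 17072 probes well above background on all 3 arrays, the median SD between pools was 0.440 on the log2 scale, and over 4552 named genes it was 0.444. For the 7 spike-in probes with every spot well above background, which contain no fish RNA, the SD between arrays had a median of 0.546 and ranged from 0.306 to 0.704. Of the 4552 named genes, 932 (20.5%) had an SD above the largest of these. Without pool 3 the median SD was 0.287 over the probes of the other pools. An SD of 2 values tends to be smaller than one of 3, so this is not directly comparable with 0.440. Across the 17072 probes, levels correlated with Pearson's r = 0.954 between pools 1 and 2, 0.928 between pools 1 and 3 and 0.908 between pools 2 and 3, as a description over probes of shared arrays. For 40 probes with 2 spots, the spots lay a median of 0.200, 0.121 and 0.582 apart in pools 1, 2 and 3. The range over the 3 pools had a median of 0.772 for the same probes. A range of 3 values tends to be wider than a gap of 2, so these are not directly comparable. The level itself had little bearing on the spread (Spearman's rho = 0.04 across probes between mean and SD).

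Pool 3 was the highest and pool 2 the lowest for many genes at once. Among the 4552 named genes, pool 3 was highest in 2662 and pool 2 in 375, and pool 2 was lowest in 2922. The median named gene lay 0.25 above its own mean in pool 3 and 0.28 below it in pool 2. In pool 3 the median deviation was 0.35 over probes above level 4 and 0.13 over probes below level 0. A list has therefore to be read against this shift, which was larger in bright probes. The cell division list (highest in pool 3 for 13 of 17 genes, gap of pool 3 to the other pools 0.63) and the thrombocyte list (6 of 6 genes, gap 0.77) are given beside the gap of 0.38 over all named genes. Both lists rank high (median percentiles 89.5 and 88.7), so that gap may understate the shift at their level.

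**Figure D4:**
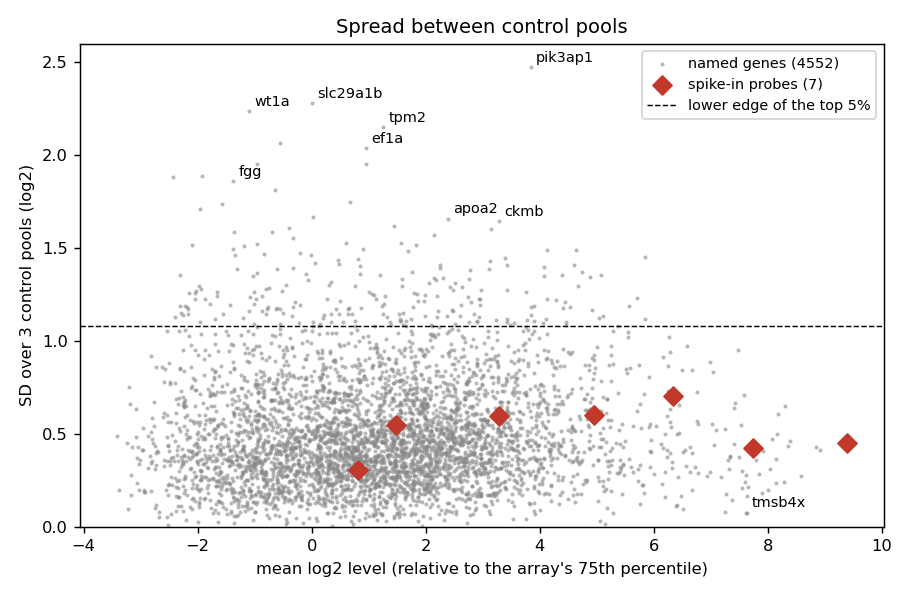
SD over the 3 control pools (vertical axis, log2) against mean level (horizontal axis, log2 relative to the array's 75th percentile) for 4552 named genes well above background on all arrays (grey) and 7 spike-in probes (red diamonds). The dashed line at an SD of 1.08 marks the lower edge of the top 5%. The spike-in probes, each the mean of 32 spots per array, lie between 0.306 and 0.704, and pik3ap1 has the widest spread.

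The genes with the widest spread were of several kinds. Pik3ap1, an adaptor of phosphoinositide 3-kinase in B cells, read 6.22, 4.01 and 1.29 in pools 1, 2 and 3, an SD of 2.47, with a different level in each pool. The nucleoside transporter slc29a1b (-1.25, 2.63 and -1.37), the transcription factor wt1a of podocytes and gonad (-2.18, 1.48 and -2.58) and the transporter-like svopl (-1.70, 1.82 and -1.80) were high in pool 2 alone. Likewise high in pool 2 alone were ch25hl3, a relative of cholesterol 25-hydroxylase (-1.71, 1.25 and -2.43), klb, a coreceptor of fibroblast growth factors (-3.17, -0.0014 and -2.70), and klhl30 (-0.59, 2.67 and -0.05). Ef1a, an elongation factor of translation, was low in pool 3 (1.66, 2.53 and -1.35), as was nectin3b, a cell adhesion molecule (0.23, 1.57 and -1.74). Traip, a ubiquitin ligase at replication forks, was high in pool 3 (1.37, -0.13 and 3.11).

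The other genes among the 20 widest were pou5f3, a pluripotency factor in zebrafish (-2.85, -0.39 and -4.08), proser3, prrt1b and neff1, all highest in pool 2, and 6 genes of the kinds described next. The threshold of the top 5% of named genes was an SD of 1.08, which 228 genes reached. In 112 of these (49.1%), pool 3 was the odd one and high, against 39.6% of all 4552 named genes. In 50 (21.9%) pool 3 was the odd one and low, against 12.9%, and in 35 (15.4%) pool 2 was the odd one and high, against 3.47%. Over all lists, 29 of 350 genes reached it, against 228 of the 4552 named genes, a share of 5% by construction. The largest counts were 6 of 12 in each of the liver and skeletal muscle lists. The stromal, kidney tubule and glucocorticoid lists had 2 of 8 each. The 3 of 45 in the respiratory chain list were near the share over all named genes. The respiratory chain genes ndufc2 (4.66, 3.68 and 1.81) and atp5a1 (4.01, 4.32 and 2.29) were low in pool 3. The respiratory chain gene ndufa3 (3.60, 2.85 and 5.09) and the stromal cxcl12a were high there. Also low in pool 3 were the stromal col1a1a (2.15, 1.80 and -0.36), mmp25b of neutrophils (2.03, 1.37 and -0.41), rpl17 (6.64, 6.17 and 4.31) and the interleukin 6 receptor il6ra (4.58, 4.79 and 2.79). All of these gaps of pool 3 kept their sign under the 7 other settings of scaling, background correction and outlier spots that were tried. The genes were chosen for a wide spread on these same arrays, so a kept sign was likely from the start and adds no support.

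Genes of the liver had one of the widest spreads between pools of any list, with a median SD of 1.03. Of its 24 genes, 17, 19 and 13 were well above background in pools 1, 2 and 3, and 12 were in all 3. The counts over all 8072 named genes were 5919, 5779 and 4737, and 4618 in all 3, so fewer passed in pool 3 there too. Among these 12 genes, pool 2 was highest in 8 and pool 1 lowest in 8, whereas over all 4552 named genes pool 2 was highest in 8.24% and pool 1 lowest in 12.6%. Plasma proteins led the difference. Apolipoprotein apoa2 read 0.94, 4.19 and 2.02 in pools 1, 2 and 3. The fibrinogen chain fgg read -3.02, 0.64 and -1.75, and plasminogen, plg, -2.90, -0.00055 and -1.12. The hemopexin gene hpxa, whose product binds free heme, read -2.25, 0.53 and 0.52, and haptoglobin, hp, which binds free haemoglobin, 0.36, 2.18 and 2.29, both low in pool 1 and alike in the other pools. The fetuin-like ahsg2, outside the list, read -1.24, 1.65 and 2.47.

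The members of the liver list did not all move. Transferrin, tfa, the list's brightest gene, was lowest in pool 2 (5.04, 4.21 and 5.45), and the retinol carrier rbp4 (3.59, 3.29 and 3.97) was too. Antithrombin read 2.89, 2.90 and 2.39. The probes of apoba, apoc2, apoea and fga were on 0 arrays. The gap of pool 2 to the other pools had a median of 1.11 over the 12 genes and of -0.42 over all named genes. The difference was 1.53, and it was 2.24 without pool 3 and 1.04 without pool 1. The gap of pool 1 to the other pools was wider, with medians of -1.72 over the 12 genes and 0.04 over all named genes. The list was thus low in pool 1 as well as high in pool 2. Of the 12 genes, 6 were in the top 5% of SD. The whole list held 0.0423%, 0.0623% and 0.0456% of the summed signal in pools 1, 2 and 3. Whether liver tissue in a dissected piece took part was not tested.

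Most genes of skeletal muscle were highest in pool 3, by an amount that depended on the processing. Other lists leaned the same way: pool 3 was highest in 7 of 8 kidney tubule genes, with a median gap of 1.29, and in 9 of 12 immediate early genes, with a median gap of 0.81. The 3 pancreas genes had a median gap of 1.23. Of the 19 skeletal muscle genes, 12 were well above background in all 3 pools, and pool 3 was highest in 9 of them, against 58.5% of all named genes. Tropomyosin tpm2 read -0.05, 0.08 and 3.74 in pools 1, 2 and 3, and the muscle creatine kinase ckmb 2.70, 2.01 and 5.14. The glycogen phosphorylase pygma read -0.60, -1.10 and 1.65, casq1b, a calcium store protein, -0.25, -0.68 and 1.38, and actn3b, an actinin of fast fibres, -1.22, -1.36 and 0.75. In all 5 genes pool 3 lay above pools 1 and 2, which were close to each other. The calcium pump gene atp2a1l (2.95, 2.67 and 2.73) did not share this.

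The gap of pool 3 to the other pools had a median of 1.69 over the 12 muscle genes and of 0.38 over all named genes, a difference of 1.31. It was 0.34 with normexp background correction and 0.58 with the deposited series values. The normexp setting also added an offset of 50 intensity units, which compresses log2 levels most on a dim array such as that of pool 3. The share of the offset in the lower value was not tested. The gaps of tpm2 and ckmb, 3.72 and 2.78, stayed at or above 3.38 and 2.27 under every other scaling and correction tried, but those of actn3b and tpm1 came down to 0.49 and 0.52 under normexp. Myoglobin, mb, and troponin T, tnnt1, were well above background in pools 2 and 3 and not in pool 1. Myoz1 and ldb3 of the muscle Z disc were on 0 arrays. The whole list held 0.0304%, 0.0298% and 0.0697% of the summed signal in pools 1, 2 and 3. Whether muscle at the edge of the organ took part was not tested.

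**Figure D5:**
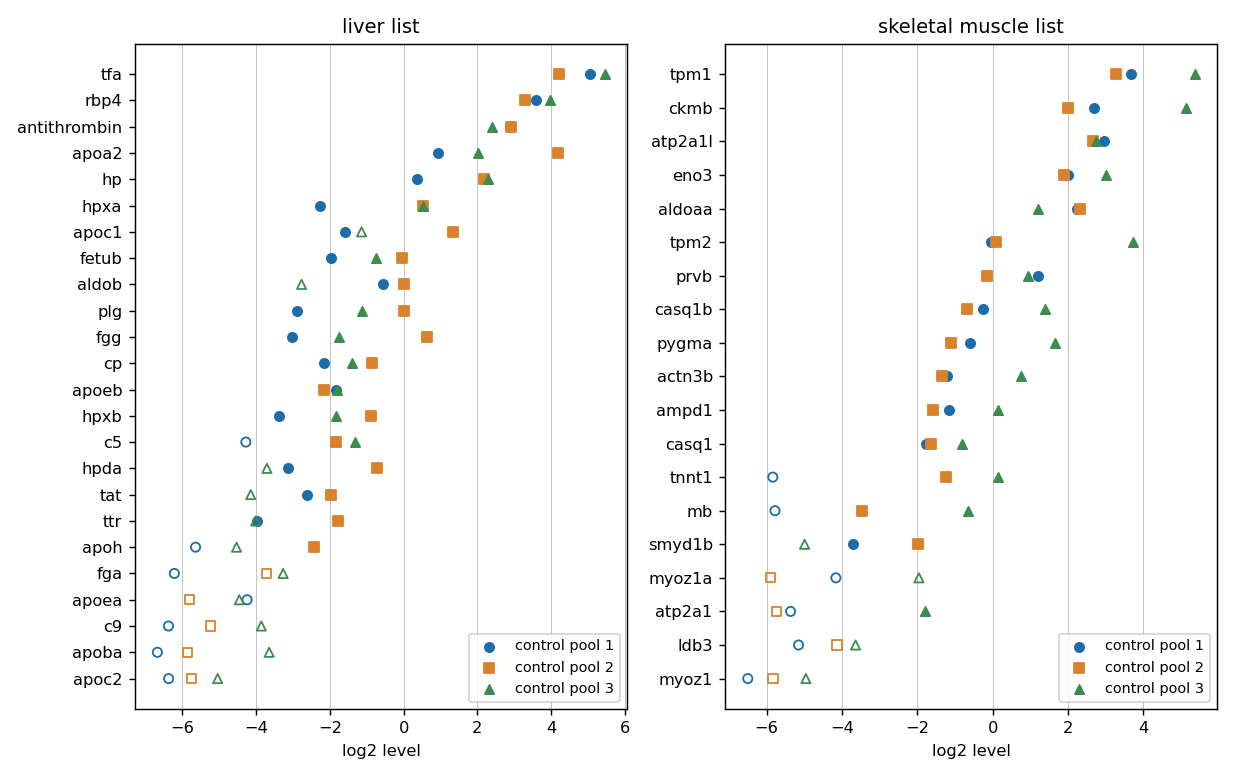
Levels of the genes of the liver list (left) and of the skeletal muscle list (right) in each control pool, as log2 signal relative to the array's 75th percentile (horizontal axis). Filled symbols are well above background in that pool and open symbols are not. Pool 1 (circles) is low for apoa2, fgg, plg and hpxa while tfa is not, and pool 3 (triangles) is high for tpm2 and ckmb.

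Some bright genes hardly differed between the pools. Among the 500 brightest named genes, the 10 with the smallest SD ranged from 0.02 to 0.09. They were xpp3, an aminopeptidase (5.16, 5.15 and 5.13), the histone h2az2a (5.07, 5.09 and 5.03), pdgfrl, if3ei, canx, tmsb4x, rpl27, rps16, stat2 and ppc1a. Of these, canx is the chaperone calnexin (3.84, 3.86 and 3.99) and stat2 a signal carrier of interferon receptors (4.10, 3.93 and 3.96). All 10 were chosen for their small spread over these same pools, so their steadiness is a description of these 3 arrays.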

How the data were processed

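The 3 control pools of head kidney RNA were grouped by their titles. Per the labels' protocols, 200 ng of RNA (RNA integrity number above 8.5) was labelled with Cy3 together with spike-in RNA. Per the file headers, the arrays of design 084881 were read with Feature Extraction 10.7.3.1, whose processed intensity is background-subtracted within each array, with no scaling across arrays. The series design text names a reference design, but the files hold 1 colour, so the direction of the values needs no dye. The values in the series table deposited by the authors are log2 and equalled log2 of the background-subtracted intensity within 5e-09, empty where that was 0 or below, with medians of 6.31, 7.02 and 5.19 in pools 1, 2 and 3 and no centring. The 3 series columns of the MPLE pools were not used.

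The processed intensities were put on the log2 scale and centred on the 75th percentile of an array's transcript spots. Outlier spots (6, 73 and 205 in pools 1, 2 and 3) were left out, spots of a probe were averaged, 0 spots were saturated, and a mean needed 2 pools, which was all that 282 probes had. An SD needed all 3 pools and a probe well above background on each array. Genes were named through unversioned RefSeq accessions. The sources used here do not give the genome build behind the probes, so no coordinates or sequences are printed.

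Text names are the 30 brightest named genes, the 4 brightest and up to 4 undetected members of each list, the 20 named genes of widest spread and list members in the top 5% of SD, the 10 steadiest of the 500 brightest, the 10 brightest probes and the 5 widest probe gaps. In addition LOC106601071, LOC106607380, nfe2, mb, tnnt1, cats, k2c8, co4a1, rir1, rir2, kita, cxcr5, tnfrsf13b and prf1.3 were named once their values were known. The gene lists, the liver and muscle contrasts and the group itself were chosen with earlier results of these data known. Tools were limma 3.58.1 (R 4.3.3) for the alternative normalizations, pandas 2.3.3 and numpy 2.4.6. The spread calculation was tested on simulated data. Alternatives were other scalings, background corrections, filters and leaving out each pool.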

Additional observations from a re-analysis of the deposited data

How the results depend on the processing

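No paired analysis was possible because only the control group was used and no test was run. Of the 100 brightest probes, 87 were shared with the ranking after normexp background correction, 88 with that from the deposited series values, and 91 to 93 when each pool was left out. The count of probes well above background on every array ran from 17494 to 22395 when a pool was left out. With the scanner software's flag for a positive and significant signal in its place, 24485 probes passed. The median spread between pools, 0.440, was 0.681 with the deposited series values and ran from 0.287 to 0.478 when a pool was left out, lowest without pool 3. With a pool left out it is an SD of 2 values, which tends to be smaller than one of 3. The excess of liver genes in pool 2 ran from 1.04 to 2.24 when another pool was left out. The excess of muscle genes in pool 3, 1.31, was 0.34 after normexp and 0.58 with the deposited series values, and 1.22 to 1.38 when another pool was left out. The cause of these shifts was not tested. Which probes varied most depended on the settings: of the 100 most variable, 38 were shared after normexp, 55 with the deposited series values, 4 without the filter on dim probes and 27 to 71 when a pool was left out. Of 33 list medians, 25 lay above the middle of the named genes, and 20 to 25 did under the alternatives. The medians of T cells, cytotoxic lymphocytes, fat tissue, glucocorticoid and stress targets, iron and heme handling, and skeletal muscle crossed that middle under at least 1 alternative. The liver and muscle contrasts and the removal of misnamed list members were chosen after seeing the data. A dim signal limits what can be ranked, most of all in pool 3.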

Other observations

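Probes without a gene in the table were more often near background than probes with one. Of 16745 such probes, 5035 (30.1%) were well above the background on every array and 6406 (38.3%) on none. Of 25641 probes with a gene, 12242 (47.7%) were so on every array and 6881 (26.8%) on none.

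Some genes of germ cells, fat and pancreas differed in detection between pools, as did many genes of other kinds. Detection on 2 arrays held for 880 (10.9%) of all 8072 named genes, and on 1 array for 821 (10.2%). Pool 2 alone passed 2763 of the 42386 probes. The genes given here are examples of this and do not set their tissues apart. The level of piwil1, which guards the germ line against mobile elements, was -2.70, 2.02 and -3.79 in pools 1, 2 and 3, and its probe was well above background in pools 1 and 2. Of the other 10 genes in the gonad and germ cell list, dnd1 was well above background in pools 1 and 2, at -2.61 and -1.26, tdrd9 in pool 1 at -3.86, and 8 in none. Adipoqa and ela2l were picked after their values were seen. Adipoqa, an adiponectin gene of fat cells, read -1.04 in pool 2 and was not well above background in pools 1 and 3, and ela2l, a pancreatic elastase, read -0.85 in pool 2 and likewise passed in that pool alone.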
